A study of Mus musculus with 11 samples.

Results

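Glomeruli of diabetic db/db mice and of non-diabetic db/m mice, all given vehicle, were compared across every gene of the deposited table. The comparison used 8 of the series' 11 RNA-seq libraries, chosen by their labels: 4 of db/db vehicle and 4 of db/m vehicle. The db/db mice were males of the BKS background, with 2 copies of db, a mutant allele of the leptin receptor gene Lepr, and the db/m mice were littermates matched for sex and age. Mice were bought at 8 weeks of age, and from 10 weeks both groups received 5% DMSO by gavage for 6 weeks. The strain field of the labels names C57BL/6J instead of BKS. Whether each library holds RNA of 1 mouse or of several is not in the labels, so the p-values cover the spread between these libraries, which may be partly technical.

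Titles were written in 2 ways, as an S number or as a group tag with a number. Each vehicle group had 2 libraries of each title form, and title form was a term of the model. The libraries are called db/db S152, S153, 1 and 3 and db/m S184, S185, 2 and 3, and values per library are given in that order. The other 3 libraries of the series came from puerarin-treated db/db mice. They entered the model outside the contrast, where they informed the estimates of spread and of the title-form term. Total counts of the 8 libraries, summed over transcripts, ran from 37006036 to 44244460. Levels are given as CPM, with library sizes adjusted by TMM.

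The leptin receptor passes the signal of the fat hormone leptin to the kinase JAK2 and the transcription factor STAT3, mainly in the hypothalamus, where it limits food intake. The db allele disturbs splicing of the long receptor isoform, and db/db mice overeat, become obese and develop hyperglycaemia and albuminuria. The glomerular filter consists of podocytes, fenestrated endothelium and the basement membrane between them, held together by mesangial cells. Podocyte loss, mesangial matrix expansion and a thickened basement membrane are known features of diabetic kidney disease.

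Markers of the glomerular cells were detected in all 8 libraries, at unlike levels. Per kb of transcript, the podocyte gene Podxl (podocalyxin) ran from 844 to 1313 CPM and Wt1 from 67.9 to 116 CPM. The endothelial gene Pecam1 ran from 307 to 552 and Cdh5 from 39.9 to 79 CPM per kb. The mesangial gene Itga8 ran from 47.7 to 109, Pdgfrb from 21.5 to 60.6 and Gata3 from 13.3 to 26.1 CPM per kb. The parietal epithelial genes Cldn1, Pax8 and Scin ran from 2.72 to 4.6, 3.02 to 8.51 and 5.46 to 16.8 CPM per kb. Tubule RNA was present as well, with 338 to 1351 CPM per kb of Umod (uromodulin of the thick ascending limb) and 92.1 to 928 CPM per kb of the distal tubule transporter gene Slc12a3. The proximal tubule gene Slc34a1 ran from 66 to 353 and Lrp2 from 2.52 to 15.1 CPM per kb. In bulk RNA, fewer cells of a type and less RNA per cell cannot be told apart.

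Some libraries stood apart. The summed CPM of the 34 measured macrophage and myeloid genes ran from 1201 to 5011 in db/db and from 624 to 1120 in db/m. Their mean log2 level was highest in db/db 1, at 2.45 above the mean of all 11 libraries, followed by db/db 3 at 0.67, against -1.09 and -0.86 in db/m 2 and 3. The mean level of 3 tubule lists was highest in db/db 3 (0.99) and lowest in db/m S185 (-0.85). Libraries db/m S184 and S185 shared a set of genes at levels far from the other 6, described with the title forms. Xist ran from 0.726 to 6.47 CPM in db/db and from 0.519 to 0.821 CPM in db/m, and the Y-linked Ddx3y was at or above 50.3 CPM in all 8 libraries.

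The leptin receptor gene itself was measured first. Lepr was at 11.1, 10.1, 7.93 and 5.68 CPM in db/db and at 9.62, 11.3, 8.32 and 9.25 CPM in db/m. The groups overlapped, and db/db 3 was the lowest library. In edgeR's quasi-likelihood test the log2 fold change was -0.18 (SE 0.16, Benjamini-Hochberg adjusted p = 0.751). An exact two-sided permutation test of log2 CPM gave p = 0.514, where 70 labelings allow a smallest p of 0.0286. The transcript model that reaches furthest downstream had 138, 124, 107 and 67 reads in db/db and 116, 143, 104 and 113 reads in db/m. Because the db allele acts on splicing and the counts are given per whole transcript, these values do not check the genotype.

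Genes around Lepr were examined because the db allele is inherited with its neighbourhood on chromosome 4. None of the 37 measured genes within 5 Mb of Lepr was called, and 4 had an unadjusted p under 0.05, all with lower values in db/db: Pde4b, Kank4, Raver2 and Usp1. Their log2 fold changes ran from -0.47 to -0.22. Within 20 Mb, 11 of 219 genes were higher and 11 lower at that threshold, beside 5.5% higher and 4.83% lower of all genes.

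Over all 13734 genes, 6 passed a Benjamini-Hochberg adjusted p of 0.05 in edgeR's quasi-likelihood test, and such genes are called here. This is 0.0437% of the genes tested. Each of the 6 fell in db/db, and each had all 4 db/db libraries below all 4 db/m libraries. No gene was called higher, while 755 genes (5.5%) had higher and 663 (4.83%) lower values at an unadjusted p under 0.05. DESeq2 called 150 higher and 140 lower, limma-voom 1 and 7. All db/db libraries lay above all db/m libraries for 341 genes (2.48%) and below them for 340 (2.48%), and the log2 fold change was above 0 for 53.5% and below 0 for 46.5% of genes. The median log2 fold change over all genes was 0.02.

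Dkk3 had the smallest p-value. It encodes a secreted glycoprotein of the Dickkopf family and lies on chromosome 7 (112116019 to 112159057, minus strand, mm10). Its levels were 4.44, 5.63, 5.17 and 5.84 CPM in db/db and 13.2, 11.5, 12.7 and 13.7 CPM in db/m. Every db/db library was below every db/m library, and both groups were tight. The db/m mean of 12.8 ± 0.922 CPM (SD, n = 4) stood against a db/db mean of 5.27 ± 0.619 CPM (SD, n = 4), and the log2 fold change was -1.28 (standard error 0.13, adjusted p = 0.0232 by edgeR).

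Foxc2 encodes a forkhead transcription factor of podocyte and vascular development and lies on chromosome 8 (121116171 to 121118894, plus strand). It was at 111, 97.1, 93 and 89 CPM in db/db and at 177, 183.5, 150 and 128 CPM in db/m. Both db/m S-number libraries were above both db/m group-tag libraries. Its log2 fold change was -0.70 (standard error 0.08, adjusted p = 0.0398 by edgeR), with groups that did not overlap. The related gene Foxc1 had -0.53 and did not pass the adjusted threshold.

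Aebp1 encodes a secreted collagen-binding protein of the extracellular matrix and was the most abundant of the 6. It was at 347, 367, 399 and 340 CPM in db/db and at 655, 611, 545 and 519 CPM in db/m. The lowest db/m library was well above the highest db/db library. This gave a log2 fold change of -0.68 (standard error 0.09, adjusted p = 0.0493 by edgeR). The gene lies on chromosome 11 (5861866 to 5872248, plus strand) and overlaps Pold2 on the opposite strand, and no source used here says whether counting used strand.

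Kcnj12 encodes the inward-rectifier potassium channel Kir2.2 and lies on chromosome 11 (61022564 to 61073267, plus strand). It was at 36.1, 33.4, 37 and 28.6 CPM in db/db and at 53.8, 60.1, 60 and 58.7 CPM in db/m. The db/m libraries lay close together, and every db/db library was below them. Its change on the log2 scale was -0.79 (standard error 0.10, adjusted p = 0.0398 by edgeR). Among the 9 measured inward-rectifier genes, Kcnj12 was the only one with an unadjusted p under 0.05. Kcnj2, its closest relative in the list, had a log2 fold change of -0.03, and the tubular channel gene Kcnj1 had 0.29.

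Slc22a7 encodes an organic anion transporter of the proximal tubule and had the largest change of the 6 at the lowest level. It was at 0.868, 0.674, 0.745 and 1.09 CPM in db/db and at 6.55, 4.88, 2.15 and 6.19 CPM in db/m. Library db/m 2 was the lowest of its group and still above every db/db library. The log2 fold change was -2.53 (standard error 0.34, adjusted p = 0.0493 by edgeR). Each transcript in the table reached at least 69 reads in at least 1 library of the series. Slc22a7 was under that count in every db/db vehicle library, so it is in the table through other libraries. The 28 proximal tubule genes together had a median log2 fold change of 0.26, which was -0.34 without db/db 3. That median was -0.33 among S-number titles and 0.81 among group-tag titles, while Slc22a7 was lower in both. The gene lies on chromosome 17 (46432185 to 46438477, minus strand).

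C130021I20Rik is an uncharacterised gene on chromosome 2 (33641193 to 33645663, plus strand). It was at 29.8, 22.7, 32.7 and 29.8 CPM in db/db and at 41.1, 46, 64.2 and 58.6 CPM in db/m. The 2 group-tag db/m libraries were the highest, in contrast to Foxc2 and Aebp1, where the S-number db/m libraries were. The log2 fold change was -0.85 (standard error 0.11, adjusted p = 0.0398 by edgeR). It starts head to head with Lmx1b on the minus strand, which encodes a LIM homeodomain transcription factor needed by podocytes and mutated in nail-patella syndrome. Lmx1b was at 23.1, 24, 25.8 and 16.5 CPM in db/db and at 36.3, 37.8, 28.9 and 30.4 CPM in db/m, also without overlap. Its log2 fold change of -0.57 did not pass (standard error 0.13, adjusted p = 0.155 by edgeR).

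The region between the start sites of this divergent pair and the upstream region of Aebp1 are shown, the first because both genes of the pair start at its ends and the second because Aebp1 was the most abundant called gene. Both are from RefSeq on GRCm38.p6, plus strand, with CG in capitals. In RefSeq, Lmx1b starts at 33641098 and C130021I20Rik at 33641193, and the 94 bases between them are chr2:33641099-33641192, whereas the deposited table ends Lmx1b at 33640511. The Aebp1 window is chr11:5861616-5861865, the 250 bases before the gene.
Lmx1b to C130021I20Rik: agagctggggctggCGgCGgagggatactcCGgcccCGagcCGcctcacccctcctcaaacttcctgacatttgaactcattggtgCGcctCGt
Aebp1 upstream: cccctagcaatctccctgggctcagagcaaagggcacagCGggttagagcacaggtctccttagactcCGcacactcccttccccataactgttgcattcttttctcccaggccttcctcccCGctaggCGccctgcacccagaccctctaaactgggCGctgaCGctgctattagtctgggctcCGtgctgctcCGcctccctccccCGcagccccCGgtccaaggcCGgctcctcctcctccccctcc
The stretch between the divergent starts held 7 CG in 94 bases and the Aebp1 window 11 in 250, where the median of 32851 promoter windows of 250 bases was 6. Of all windows, 35.6% had at least as many CG as Aebp1. Neither stretch held a STAT-type TTCNNNGAA (found in 7.02% of all windows on either strand), a forkhead-type GTAAACA (3.17%) or a homeodomain-type TAATTA (4.84%), which says only that these letters are not in these windows. The upstream windows of C130021I20Rik and Wnt4 likewise held none of the 3. Neither did the window of Kcnj12, which lies inside the gene, before its shorter transcript (start 61065804). Of the 6 called genes 3 had a window, and Dkk3, Foxc2 and Slc22a7 are named only.

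**Figure D1:**
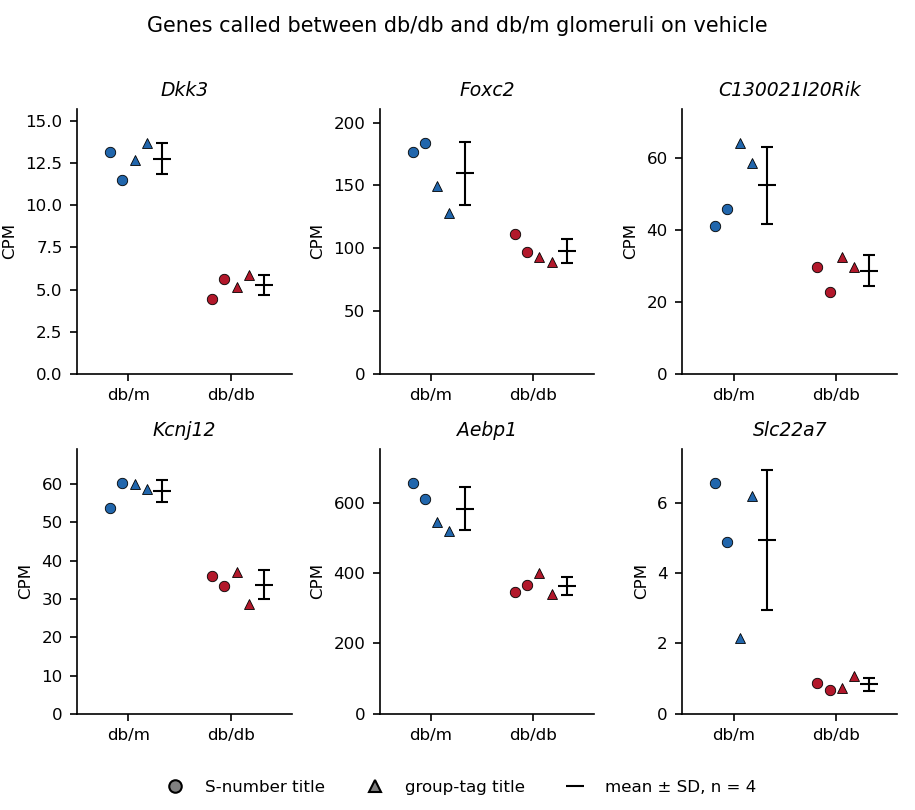
Level of the 6 called genes (vertical axes, CPM, from 0) in the 4 db/m (blue) and 4 db/db (red) vehicle libraries, with circles for S-number titles, triangles for group-tag titles and bars for the mean ± SD (n = 4). In each panel all db/db libraries lie below all db/m libraries, by the smallest relative margin for Foxc2 and C130021I20Rik.

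The next genes in rank missed the adjusted threshold, with edgeR adjusted p-values between 0.051 and 0.0757 for the 15 smallest p-values in the higher direction. Ajap1, which encodes a membrane protein of adherens junctions, was at 11.4, 16.3, 6.04 and 4.46 CPM in db/db and at 2.79, 2.94, 2.05 and 0.97 CPM in db/m. Within each title form the db/db libraries were higher by a similar factor, and S-number libraries were higher in both groups. Its log2 fold change was 2.05 (standard error 0.29, adjusted p = 0.051 by edgeR). Gabra3, a GABA-A receptor subunit gene on the X chromosome, was at 3.78, 2.9, 1.86 and 3.56 CPM against 0.711, 0.836, 0.667 and 0.87 CPM (log2 fold change 1.97). Its db/m libraries were under the 69 reads that each transcript in the table reached in at least 1 library.

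Lgals1 encodes galectin-1, a secreted carbohydrate-binding protein. It was at 42.2, 64.3, 39.9 and 43.2 CPM in db/db and at 26.1, 18.6, 19.6 and 24 CPM in db/m, and db/db S153 stood above its group. The log2 fold change was 1.09 (standard error 0.17, adjusted p = 0.0647 by edgeR). Acer2, an alkaline ceramidase of the Golgi, was the most abundant of these 15 genes, at 441, 478, 409 and 355 CPM against 216, 326, 242 and 225 CPM. All db/db libraries of Acer2 lay above the highest db/m library (log2 fold change 0.74, adjusted p = 0.0757 by edgeR). Man2a1, a Golgi mannosidase of N-glycan processing, was at 149, 129, 123 and 131 CPM against 70, 84.5, 81.2 and 84.7 CPM (log2 fold change 0.73).

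The semaphorin receptor gene Plxnc1 was at 15.5, 17.1, 15 and 18.5 CPM in db/db and at 10.3, 7.77, 9.76 and 10.4 CPM in db/m (log2 fold change 0.79). Flnc, which encodes the actin cross-linker filamin C, had a log2 fold change of 0.59, and Tnnt2, the cardiac troponin T gene, 1.40. Ccdc85a (1.69), 4932441J04Rik (1.07), the ribonuclease gene Rnase4 (0.87), the protease inhibitor gene Spink8 (1.07), the glutaminyl cyclase gene Qpct (0.52) and the myosin gene Myo3b (0.61) completed the set with D17H6S56E-5 (1.37). D17H6S56E-5 has near-identical copies, so its counts are uncertain. All 15 genes had db/db libraries above all db/m libraries.

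Among the genes with lower values, Wnt4 was at 3.47, 3.21, 2.68 and 2.09 CPM in db/db and at 9.75, 12.3, 8.84 and 7.71 CPM in db/m. Wnt4 is a Wnt ligand of nephron formation, and its highest db/db library had less than 4 CPM where no db/m library was under 7. The log2 fold change was -1.75 (standard error 0.25, adjusted p = 0.0572 by edgeR). With the 8 vehicle libraries alone, Wnt4 was called (adjusted p = 0.0285 by edgeR) together with Dkk3 (0.0445), and the other 5 genes were not. Cacna2d2, an auxiliary calcium channel subunit gene, was at 16.4, 15.4, 25.5 and 14.7 CPM against 46.7, 44, 37.4 and 33.7 CPM (log2 fold change -1.16).

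Adra2c, the alpha-2C adrenergic receptor gene, was at 4.72, 5.83, 6.98 and 5.71 CPM in db/db and at 11.3, 12.2, 11.5 and 9.43 CPM in db/m (log2 fold change -0.94). Ddn encodes dendrin, an adaptor at the podocyte slit diaphragm, and was at 490, 427, 484 and 500 CPM against 597, 653, 713 and 653 CPM. Its log2 fold change was -0.46 (standard error 0.07, adjusted p = 0.0647 by edgeR). The melanocortin receptor gene Mc4r (-1.57), the transcription factor gene Sox8 (-1.12), the interferon-induced gene Ifi44 (-0.89), the mitochondrial topoisomerase gene Top1mt (-0.83) and the acid phosphatase gene Acpp (-0.66) were also lower without overlap. H2-Q5 (-0.64) was lower too, and as a class I histocompatibility gene it shares reads with near-identical copies.

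**Figure D2:**
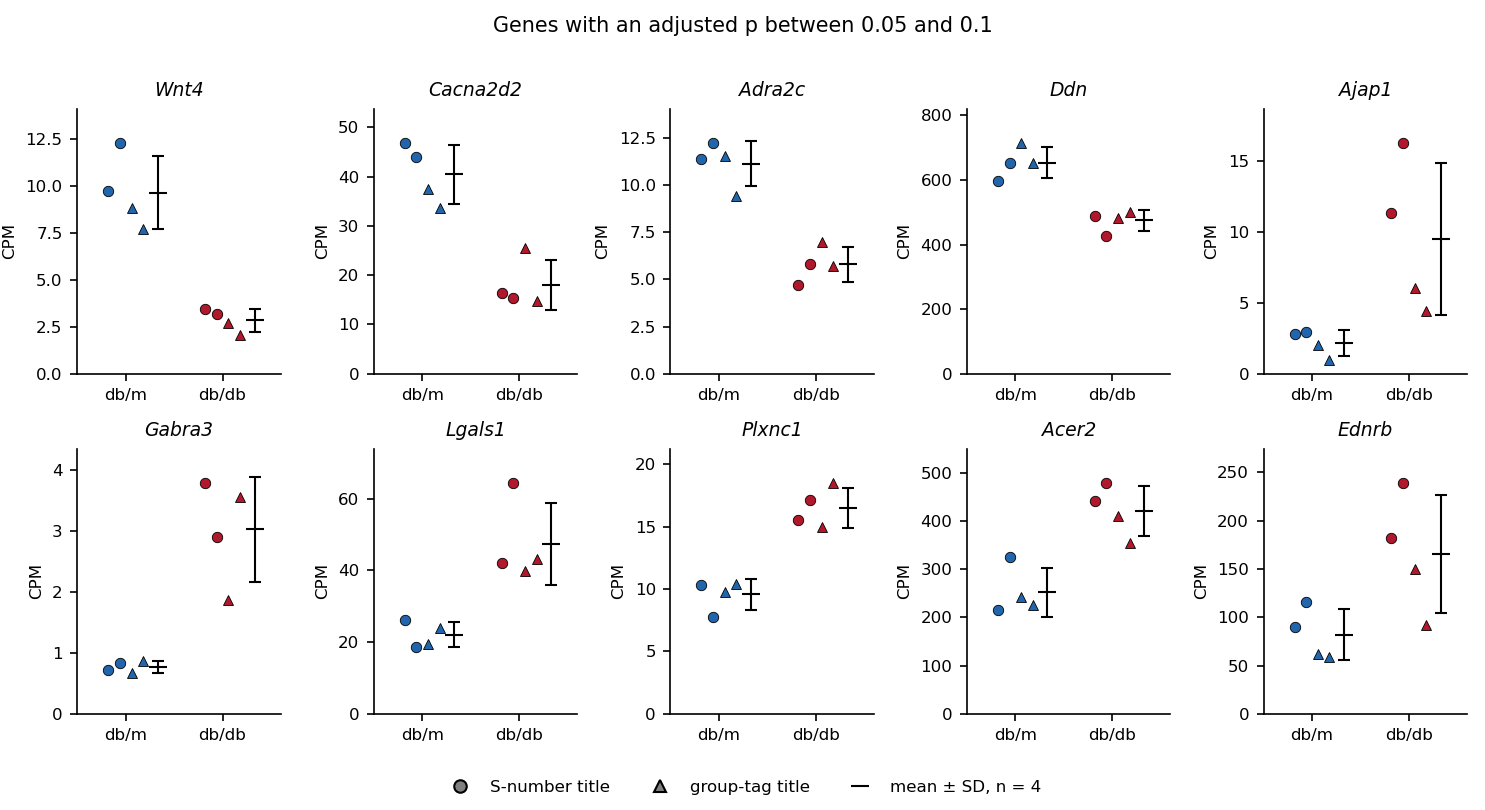
Level of 10 genes with an adjusted p between 0.05 and 0.1 (vertical axes, CPM, from 0) in the db/m (blue) and db/db (red) vehicle libraries, circles for S-number and triangles for group-tag titles, bars for mean ± SD (n = 4). The groups are separate for every gene shown except Ednrb, where db/db 3 (92.3 CPM) lies below db/m S185 (116 CPM).

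Some genes with a large fold change and separate groups had an adjusted p well above the threshold. The complement gene C1qb was at 6.13, 3.63, 116 and 25.2 CPM in db/db and at 1.83, 1.27, 1.01 and 1.34 CPM in db/m. Libraries db/db 1 and 3 were far above the others, and the log2 fold change was 3.96 (standard error 1.03, adjusted p = 0.205 by edgeR). C1qa, C1qc, C3ar1, Fcna and the macrophage metalloelastase gene Mmp12 also had db/db 1 as the highest library and db/db 3 as the next. Qrfpr, a neuropeptide receptor gene, differed from these: it was at 10.6, 4.2, 1.22 and 8.53 CPM in db/db and at 0.229, 0.542, 0.445 and 0.249 CPM in db/m. Here db/db 1 was the lowest of its group (log2 fold change 4.03, adjusted p = 0.121 by edgeR). Each transcript in the table reached at least 69 reads in at least 1 library of the series. Qrfpr was under that count in every db/m library, and C3ar1 and Fcna in every vehicle library but db/db 1. These genes are in the table through libraries where they were higher.

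Gene groups are described by how many measured members had an unadjusted p under 0.05, beside 10.3% of all genes, and by their median log2 fold change, beside 0.02. Podocyte genes came first. Of 40, 13 passed this threshold and all 13 were lower, 33 had a negative log2 fold change, and the median was -0.18. Only Foxc2 was called. Among the 13 were the transcription factor genes Foxc2, Foxd1, Lmx1b, Foxc1 and Wt1. Wt1, the Wilms tumour factor that maintains podocytes, was at 247, 245, 276 and 210 CPM in db/db and at 301, 322, 358 and 283 CPM in db/m (log2 fold change -0.37, adjusted p = 0.303 by edgeR). Foxd1 was at 76.9, 83.7, 69.1 and 58.3 CPM against 93.7, 94.7, 109 and 102 CPM (-0.48). Synpo, which encodes the actin-associated protein synaptopodin, was at 1347, 1251, 1327 and 1202 CPM against 1354, 1633, 1859 and 1629 CPM (-0.33). All 3 had groups that did not overlap.

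RNA of Nphs1 (nephrin) and Podxl differed less, with log2 fold changes of -0.03 and -0.17 and overlapping groups. Not all genes of the filter were alike, as the slit diaphragm gene Ddn had -0.46 without overlap. Vegfa, the endothelial growth factor that podocytes secrete, was at 3470, 3511, 3093 and 3046 CPM against 3474, 3940, 4166 and 3552 CPM (log2 fold change -0.21). The podocyte median was -0.08 among S-number titles and -0.28 among group-tag titles. The tubule level, the mean of 3 tubule lists, was highest in db/db 3, the library with the lowest podocyte level. The lists did not move together: the proximal tubule list was highest in db/m S184 (1.36). In db/db 1 it was at -1.20, with loop and distal tubule at 0.15 and collecting duct at 0.47. With the tubule level as a further term the podocyte median was -0.11 with 12 members lower and 2 higher. Without db/m 2 it was -0.07, with 11 lower and 3 higher. The part of the tubule RNA in these values was not tested further.

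Among endothelial genes the picture was mixed. Of 30, 8 passed the unadjusted threshold, all higher, while the median was -0.08. The 8 were Ednrb, Gpihbp1, Lrg1, Sost, Ramp3, Fabp4, Egfl7 and Vwf. Ednrb, the endothelin B receptor gene, was at 182, 238, 150 and 92.3 CPM in db/db and at 89.8, 116, 62.3 and 59.1 CPM in db/m (log2 fold change 1.02, adjusted p = 0.0918 by edgeR). Gpihbp1, which carries lipoprotein lipase to the capillary lumen, was at 109, 108, 81.8 and 71.4 CPM against 47.9, 58.8, 36.7 and 53.3 CPM (0.90). The leucine-rich glycoprotein gene Lrg1 was at 18, 30.4, 19.3 and 21.3 CPM against 4.04, 5.74, 7.31 and 10.1 CPM (1.68). Of the markers used to check the tissue, Pecam1 had a log2 fold change of -0.08, Kdr -0.33 and Ehd3 -0.31, with overlapping groups. Without db/db 1, 8 members were higher and 10 lower, and the median turned to 0.04 without db/db 3 and to 0.05 without db/m 3.

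Vasoactive and adhesion genes were counted separately. Adm, which encodes the vasodilator adrenomedullin, was at 69.5, 69, 32.6 and 61 CPM in db/db and at 22.8, 28, 28 and 27.9 CPM in db/m. Library db/db 1 was close to the db/m libraries, and the log2 fold change was 1.10 (standard error 0.20, adjusted p = 0.0963 by edgeR). Of 36 angiogenic and vasoactive genes 6 were higher and 4 lower, among the lower Esm1 (-0.74), Pdgfb (-0.58) and Pgf (-0.98). Leaving out db/db 1, this list had 8 higher and 7 lower and a median of 0.03, against 0.14 with it. Of 27 inflammation and adhesion genes 6 were higher and none lower, with a median of 0.14. With db/db 1 left out, 3 were higher and the median was -0.03, and without db/m 3 also 3 were higher. The S-number vehicle libraries by themselves gave 3 higher and 2 lower. Sele (E-selectin, 0.97) and Icam1 (0.52) had separate groups, while Vcam1 was at 31.6, 26.2, 73.8 and 26.2 CPM against 12.5, 28.7, 13.2 and 11.7 CPM.

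Mesangial and pericyte genes had 1 member higher and 4 lower of 22, and 8 lower without db/db 1. Their median of -0.10 was 0.04 without db/db 3. The serine protease inhibitor gene Serpine2 was at 632, 593, 461 and 294 CPM in db/db and at 281, 338, 177 and 262 CPM in db/m (log2 fold change 0.88). The smooth muscle genes Myh11 (-0.57), Lmod1 (-0.51) and Acta2 (-0.30) and the matricellular gene Postn (-0.57) were lower. Myh11 differed more by title form than by genotype, at 55.8 and 66.9 CPM in db/db S152 and S153 against 343 and 265 CPM in db/db 1 and 3, and likewise in db/m.

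Matrix genes were found in both directions, 10 higher and 6 lower of 52, with a median of 0.13. Leaving out db/db 1, the counts were 8 higher and 10 lower and the median was 0.01. Col12a1, a fibril-associated collagen gene, was at 62, 45.5, 50.6 and 56.2 CPM in db/db and at 24.6, 26.3, 20.3 and 27.6 CPM in db/m (log2 fold change 1.12, adjusted p = 0.121 by edgeR). Col8a1 (0.96), Mgp (0.70), Mmp2 (0.69), Tnc (0.64), Eln (0.61), Bgn (0.53) and Timp3 (0.50) were also higher. Besides Aebp1, the lower genes were Col6a1 (-0.76), Hspg2 (-0.44), Col1a2 (-0.39), Col18a1 (-0.32) and Lamb2 (-0.27). The basement membrane collagens Col4a1 and Col4a2 had log2 fold changes of 0.27 and 0.44, and both were highest in db/db 1 (825 and 431 CPM).

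Wnt and TGF-beta genes were also mixed, with 5 higher and 5 lower of 41 in the first list and 5 and 4 of 39 in the second. Without db/db 1 the second had 5 higher and 9 lower, and without db/db 3 the first had 5 higher and 2 lower. Genes of secreted Wnt modulators split, Dkk3 and Wif1 (-0.52) lower and Sost (1.17) and Frzb (0.80) higher. Dkk2, the most abundant Dickkopf gene named here, had a log2 fold change of 0.07 at 236 to 478 CPM in db/db and 248 to 445 CPM in db/m. In the TGF-beta list, Ltbp4 was at 413, 420, 432 and 349 CPM against 584, 661, 476 and 542 CPM (-0.48). Tgfb2 had -0.59, Bmp4 0.46 and the inhibitor gene Skil 0.41, while Tgfb1 had 0.08.

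Cell cycle genes had the largest share of any list of 10 or more genes: 17 of 35 were higher and 1 lower, with a median of 0.35. Mki67, a marker of cycling cells, was at 10.5, 4.61, 10.6 and 3.78 CPM in db/db and at 3.38, 3.55, 2.89 and 2.56 CPM in db/m. Cdk1, the mitotic kinase gene, was at 4.06, 1.17, 3.38 and 1.82 CPM against 0.812, 0.836, 0.247 and 0.97 CPM (log2 fold change 1.87, adjusted p = 0.182 by edgeR). Levels were low, and the summed CPM of the list ran from 877 to 1143 in db/db and from 850 to 987 in db/m. The member that was lower was E2f1 (-0.49). Without db/db 1, which also had the highest myeloid level, 11 were higher and 2 lower and the median was 0.27. The part of the myeloid RNA in these values was not tested further.

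All 34 macrophage and myeloid genes had a positive log2 fold change, with a median of 1.17, and 9 had an unadjusted p under 0.05. The sets differed by title form: the median was -0.14 among S-number and 2.52 among group-tag titles. Cd68 was at 3.85, 3.06, 36.7 and 6.06 CPM in db/db and at 3.55, 3.98, 1.7 and 1.87 CPM in db/m. Without db/db 1 the median was 0.53 and 7 members passed, and without db/m S184 and S185 it was 2.27 and 31 passed. With 1 library left out, the number passing ran from 5 (without db/m 2 or db/m 3) to 20 (without db/db S152), all higher. The S-number vehicle libraries by themselves gave 10 of 34 positive values, with 5 members higher and 8 lower. Those with group-tag titles gave 34 positive values, with 32 higher and 0 lower. Apoe (1.19) and Lgals3 (0.99) were among the 9, and both are also made by resident kidney cells. Of 12 neutrophil genes listed 6 were measured and 3 were higher, with S100a8 at 5.18, 4.15, 8.25 and 2.25 CPM against 3.22, 1.56, 0.864 and 1.89 CPM. Of 19 lymphocyte genes listed 7 were measured and 1 was lower, the granzyme gene Gzma (-1.08). The T cell gene Cd3e and the erythroid gene Alas2 had no entry under these symbols among the measured genes.

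Metabolic genes were examined next. Of 48 fatty acid oxidation and PPAR target genes, 8 were higher and none lower, and 44 had positive values with a median of 0.24. Plin2 (lipid droplet coat, 0.52), Angptl4 (lipoprotein lipase inhibitor, 0.85), Ucp2 (0.62) and Ppara (1.01) were among the 8. The tubule level moved with this group: with it as a further term the median was 0.06, with 8 members higher and 2 lower. Without db/db 1, 16 were higher and 1 lower, and without db/m S184, 18 were higher.

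Sterol genes were mostly on the lower side. Of 41 lipogenesis and sterol genes 2 were higher and 5 lower, with a median of -0.11. Srebf2, the gene of the main transcription factor of cholesterol synthesis (-0.30), its retention factor gene Insig1 (-0.62) and the cholesterol enzyme gene Dhcr7 (-0.36) had groups that did not overlap. Srebf1, the fatty acid counterpart of Srebf2, had -0.10. Without db/m S184 and S185 the list's median was 0.03, with 1 member lower and none higher, and with the tubule level 12 were lower and 3 higher.

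Of 48 antioxidant and NRF2 genes 8 were higher and none lower (median 0.19). Without db/m S184, 21 were higher (median 0.27), and 5 were without db/db S153, db/db 3, db/m S185 or db/m 2. Mt2, a metallothionein gene, was at 41.6, 42.5, 45.7 and 75.3 CPM in db/db and at 26.9, 13.7, 29.6 and 30.9 CPM in db/m (log2 fold change 1.03, adjusted p = 0.135 by edgeR). Mt1 (0.74), Hmox1 (heme oxygenase 1, 0.51) and Nfe2l2, the gene for NRF2 itself (0.24), had separate groups, and its inhibitor Keap1 had -0.02. With the tubule level as a further term the median was 0.08, with 11 members higher and 1 lower. Glycolysis genes had 2 of 34 higher, Ldha (0.32) and Pdk1 (0.56), but 14 without db/m S184 and 7 without db/db 1. No gene of 9 for NADPH oxidases passed the unadjusted threshold: Nox4 was at 198, 211, 31 and 204 CPM in db/db and at 249, 76.9, 48.3 and 54.1 CPM in db/m. The respiratory chain had 85 of 94 genes with positive values, a median of 0.15 and 2 members lower at the threshold, and with the tubule level the median was 0.01. Without db/m S184, 27 of its genes were higher and 1 lower.

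Hormone and stress response genes were mixed. Of 26 leptin and JAK-STAT3 genes 3 were higher. Stat3 was at 296, 349, 360 and 242 CPM in db/db and at 220, 225, 232 and 237 CPM in db/m (log2 fold change 0.45), without overlap, and the phosphatase gene Ptpn1 had 0.29. Socs3, a STAT3 target that inhibits leptin and cytokine signalling, was at 164, 111, 50.2 and 13 CPM against 48.7, 25.1, 22.6 and 21.7 CPM, with db/db 3 below every db/m library. Of 29 immediate early genes 8 were higher (median 0.28), while without db/db S152 3 were higher and 1 lower (median 0.03). Without db/m 2, 3 were higher, and without db/m S185 or db/db 1, 4 were. Fos was at 237, 100, 57.6 and 23.9 CPM against 114, 40.1, 49.3 and 37 CPM. Socs3 and Fos were both highest in db/db S152 and lowest in db/db 3.

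Of 22 glucocorticoid response genes 8 were higher and 1 lower, with a median of 0.32. Fkbp5, a feedback chaperone of the glucocorticoid receptor, was at 135, 151.7, 219 and 235 CPM in db/db and at 33.4, 39.8, 158 and 142 CPM in db/m. Its low db/m libraries were S184 and S185 alone. Hsd11b1, which regenerates active glucocorticoid, was the lower member (-1.15). Of 43 insulin and IGF genes 3 were higher and 6 lower, and 2 and 9 without db/db 1, with Inppl1 (-0.33), Igf2 (-0.91) and Foxo1 (-0.35) lower and the insulin receptor gene Insr at 0.12.

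Gnai1, the gene of an inhibitory G protein subunit, was at 82.6, 75.3, 60.5 and 62.5 CPM in db/db and at 51.2, 57.3, 48.1 and 52.8 CPM in db/m. All db/db libraries were above all db/m libraries, and the log2 fold change of 0.41 had an unadjusted p of 0.00219 (standard error 0.10, adjusted p = 0.182 by edgeR). Of 45 inhibitory G protein and cAMP genes 2 were higher and 4 lower (5 and 5 without db/db 1 or without db/m S184), with a median of 0.01, and Gnai2 had a log2 fold change of 0.00 to 2 decimals. The other higher member was Prkar1b, a regulatory subunit gene of protein kinase A (0.74). Of 12 renin-angiotensin genes Ace was higher (0.62), and Ren1 (renin) was at 76.2, 97.9, 212 and 84.5 CPM against 331, 236, 130 and 155 CPM. No proteasome gene of 46 passed the unadjusted threshold.

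**Figure D3:**
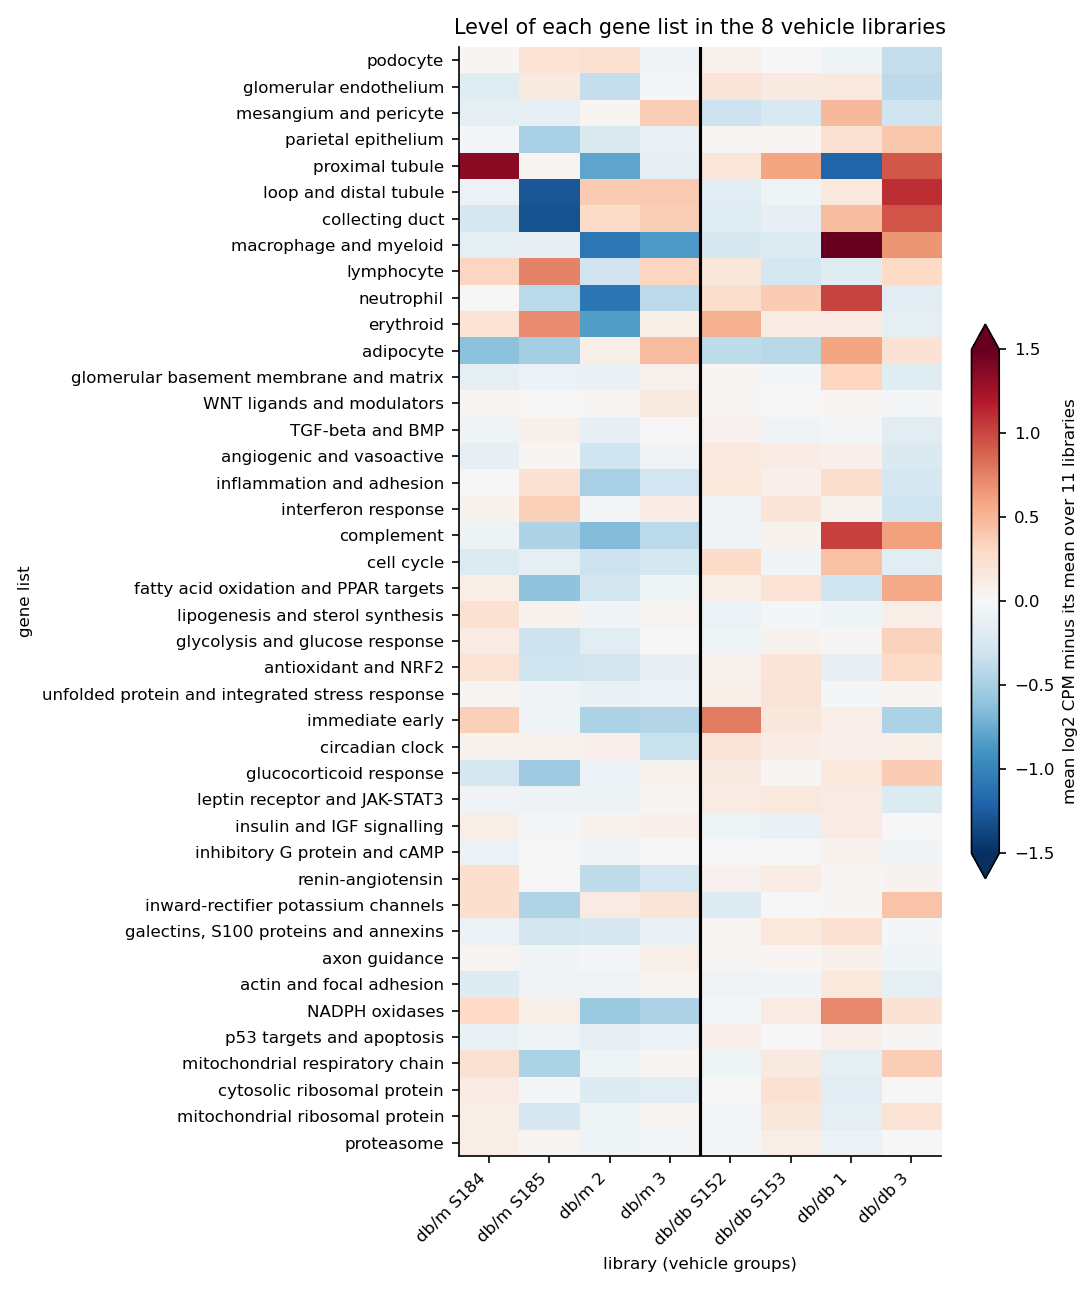
Level of the 42 gene lists (rows) in the 8 vehicle libraries (columns, db/m left and db/db right of the line), each the average log2 CPM of the members after centring every gene on all 11 libraries. Colour ends at -1.5 and 1.5. The strongest cells are the myeloid list in db/db 1 (2.45) and the proximal tubule list in db/m S184 (1.36). Next are the collecting duct list (-1.31) and the loop and distal tubule list (-1.28), both in db/m S185.

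The genotype difference was also taken within each title form, 2 libraries against 2, as contrasts of 1 model over all 11 libraries. Across all 13734 genes the 2 sets of log2 fold changes had Pearson's r = 0.25 and Spearman's rho = 0.32. Genes are not independent replicates, and all libraries of a form share what set them apart. The direction was the same in both forms for 61.8% of all genes, for 79.9% of the 884 genes (6.44% of those tested) with an unadjusted p under 0.05 among S-number titles, and for 72.6% of the 911 such genes (6.63%) among group-tag titles. Of the 884, 472 (3.44%) were higher and 412 (3%) lower, and of the 911, 596 (4.34%) were higher and 315 (2.29%) lower. In all, 190 passed in both forms in the same direction (104 higher and 86 lower) and 9 in opposite directions. The 6 called genes were chosen over these same libraries, so a like direction in both forms was largely fixed by that choice. Among S-number and group-tag titles the log2 fold changes were -1.29 and -1.26 for Dkk3 and -0.71 and -0.86 for Kcnj12. Aebp1 (-0.83 and -0.53) and Slc22a7 (-2.88 and -2.19) differed more.

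**Figure D4:**
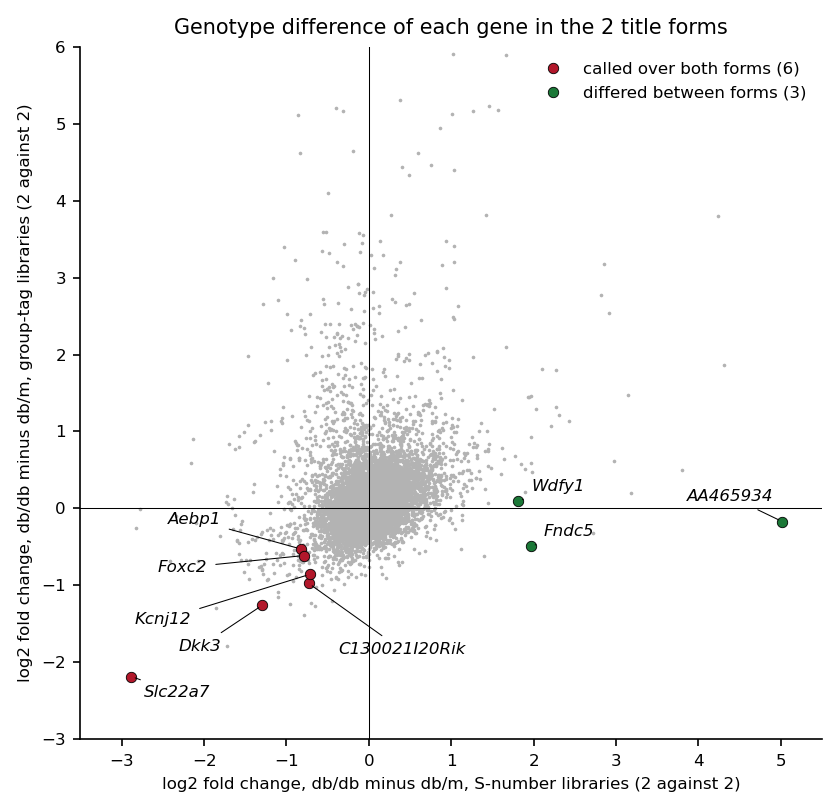
Log2 fold change of db/db over db/m for each gene among S-number titles (horizontal) and among group-tag titles (vertical), with the 6 called genes in red and the 3 that differed between forms in green. The red points lie in the lower left quadrant and the green points to the right, between -0.49 and 0.09 on the vertical axis, and 3 genes lie outside the axes.

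A test of the difference between forms called 3 genes (0.0218% of those tested), and 458 genes (3.33%) had an unadjusted p under 0.05, 134 (0.976%) with a larger and 324 (2.36%) with a smaller log2 fold change among S-number titles. AA465934, an uncharacterised gene on chromosome 11, was at 16.7, 20.6, 15.6 and 21.7 CPM in db/db and at 0.508, 0.633, 21.1 and 20.9 CPM in db/m. The 2 low libraries were db/m S184 and S185, and the other 6 lay together. The difference between the within-form log2 fold changes was 5.19 (standard error 0.31, adjusted p = 0.00141 by edgeR). Fndc5, which encodes the precursor of irisin, was at 74.1, 65.5, 63.3 and 52.5 CPM against 17.1, 18.4, 91.6 and 71.5 CPM, a difference of 2.47 (adjusted p = 0.0239 by edgeR). Wdfy1, an endosomal adaptor gene of Toll-like receptors, was at 47.5, 52.9, 43.7 and 47.2 CPM against 14.3, 14.2, 44.5 and 40.7 CPM, a difference of 1.72 (adjusted p = 0.0255 by edgeR).

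Further genes had the same libraries apart without passing that test. Zbtb16, a glucocorticoid-induced transcriptional repressor gene, was at 6.7 and 7.64 CPM in db/m S184 and S185 and between 47.3 and 89.8 CPM in the other 6. Grik3 was at 0.229 and 0.158 CPM in those libraries and between 1.19 and 2.88 CPM elsewhere. In the opposite direction, the transporter gene Slco1a1 was at 22.8 and 13.1 CPM there and between 1.07 and 4.21 CPM elsewhere, and Tlr12 at 7.82 and 4.7 CPM against at most 0.472 CPM. In the model over all 11 libraries with group and title form combined, the S-number contrast called 12 genes (0.0874%), among them AA465934, Wdfy1, Fndc5, Grik3, Zbtb16, Fkbp5, Slco1a1 and Tlr12, and none of the 6 genes called over both forms. In that model edgeR called 0 genes (0%) for the group-tag contrast, against 911 at an unadjusted p under 0.05. A model of the 4 vehicle libraries with S-number titles by themselves called 8 genes, which included AA465934, Zbtb16, Fndc5, Wdfy1 and Fkbp5 but not Grik3, Slco1a1 or Tlr12. With the 4 group-tag vehicle libraries by themselves it called 0, and 526 genes had an unadjusted p under 0.05.

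**Figure D5:**
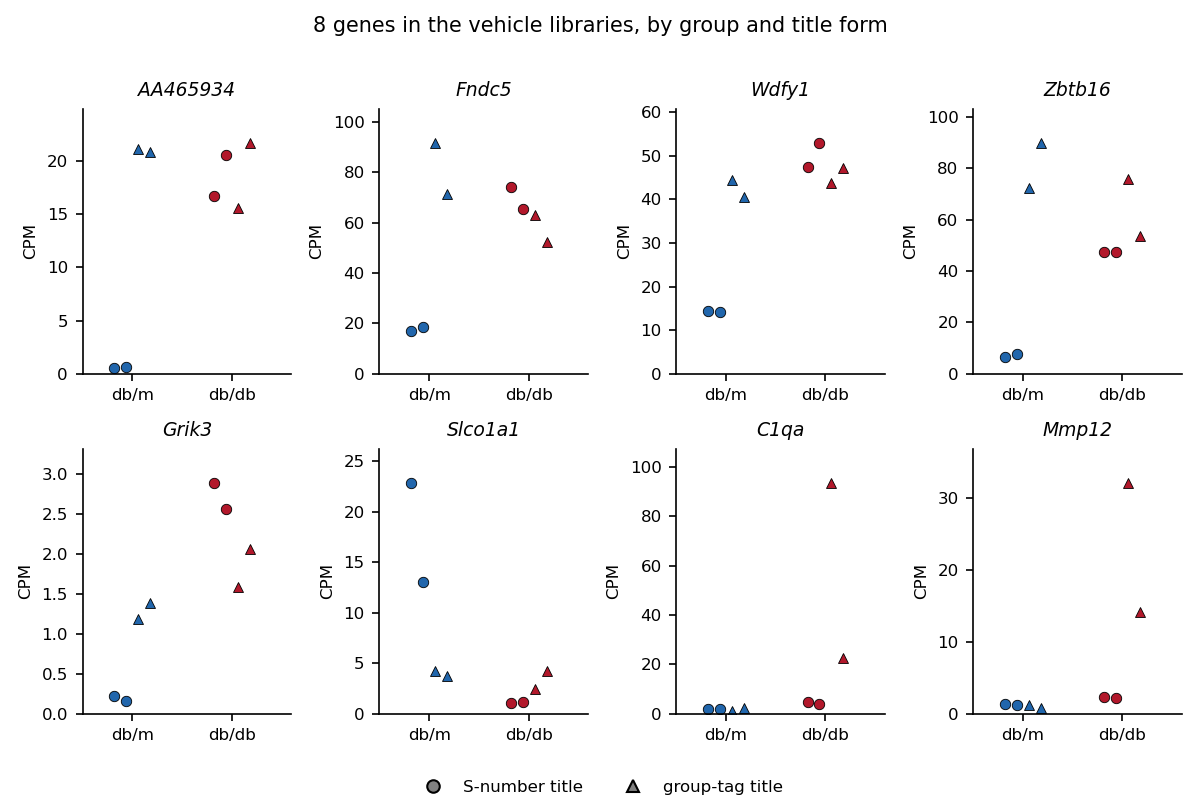
Level of 8 genes (vertical axes, CPM, from 0) in the db/m (blue) and db/db (red) vehicle libraries, circles for S-number and triangles for group-tag titles. For AA465934, Fndc5, Wdfy1, Zbtb16, Grik3 and Slco1a1 the db/m circles (S184 and S185) stand apart from the other libraries of their group, and for C1qa and Mmp12 the db/db triangles (1 and 3) do.

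The number of called genes differed with the libraries used. Leaving out db/db 1, the library with the high myeloid level, gave 82 called genes, 31 higher and 51 lower, and adding the tubule level as a term gave 100, 58 higher and 42 lower. DESeq2 called 290, and 40 genes were called in all 3 settings, 15 higher and 25 lower. Among the 25, H2-Q6 and H2-Q8 overlap in position and had identical values in every library, so they are not separate findings. The 40 included the 6 called genes. Of the others on the lower side, Gja3, a gap junction gene, had 21.4 to 45.3 CPM in db/db and 50.6 to 69.9 CPM in db/m (log2 fold change -1.05), and the calcium release channel gene Itpr3 70.4 to 113 against 134 to 157 CPM (-0.70). On the higher side, Cyp24a1, the vitamin D 24-hydroxylase gene of the tubule, had 16.7 to 158 against 5.95 to 20.3 CPM (2.80), and the transcription factor gene Mitf 28.8 to 53.4 against 18.8 to 33.4 CPM (0.55). These 4 were named after their values were seen, and none passed in the test over all 11 libraries. Leaving out db/db S153, db/db 3, db/m S184, db/m S185, db/m 3 or the puerarin library 3 left 0 called genes in edgeR, with 983 to 2079 genes at an unadjusted p under 0.05. Each of the 6 called genes remained lower in db/db in all 24 alternatives. As their groups did not overlap and the alternatives reuse these libraries, this was largely fixed beforehand. Of the 24, 13 called Dkk3, 11 C130021I20Rik, 10 each Foxc2 and Kcnj12, and 8 each Aebp1 and Slc22a7.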

How the data were processed

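The deposited table holds read counts per RefSeq transcript of glomerular RNA on mm10. The authors' tools, per the submitters' processing notes, were BWA and limma, with versions and counting settings not given in the sources used here. Of its 15 count columns, 4 matched no sample and were not used, and 13 blank cells were taken as 0. Each transcript in the table had at least 69 reads in at least 1 of the 11 libraries, and the model's filter removed 0 genes. A gene under that count in 1 group is therefore present through libraries where it was higher. How far this cut bears on the fold changes was not tested. Counts of 22320 transcripts were summed to 13734 genes (4562 with more than 1 transcript), so reads shared by transcripts may be counted repeatedly. For example, the 2 transcripts of Aebp1 had 6792 and 6791 counts in db/db S152. Levels per kb divide the summed CPM by the length of the transcript with most counts. Levels of genes with different numbers of transcripts may therefore not be comparable. Genes were tested with edgeR 4.0.16 in R 4.3.3 (TMM, quasi-likelihood, terms for group and title form) over 11 libraries, with Benjamini-Hochberg adjusted p over all genes. Alternatives used DESeq2 1.42.0, limma 3.58.1, other scaling, filters and libraries. The scripts were tested on simulated data.

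Named genes were those called, the 15 smallest p-values per direction, up to 8 of the largest changes per direction among separated genes with p under 0.01, up to 4 of smallest p per gene list, and genes differing by title form. Other list members in the text were named after their values were seen. The members and lists were chosen with earlier results of these data known.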

Additional observations from a re-analysis of the deposited data

Results flagged for a closer look

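In 344 groups of 4 libraries, one for each named gene and genotype examined, 17 had a highest or lowest library whose gap to its nearest neighbour, as a share of the group's range, exceeded Dixon's critical value at 95%. Chance gives about 1 in 20, or 17.2. In db/db 1 these were the highest values of Cacna2d2 (25.47 CPM), C3ar1 (6.386 CPM), Fcna (27.58 CPM), Vcam1 (73.8 CPM) and Insig1 (16.35 CPM). In db/db 3 they were the highest values of Myo3b (12.31 CPM) and of the metallothionein genes Mt2 (75.31 CPM) and Mt1 (173.1 CPM), and in db/db S153 that of Lgals1 (64.26 CPM). In db/m S185 the highest values of Mc4r (10.96 CPM), Cd24a (654.5 CPM) and Vcam1 (28.7 CPM) and the lowest of Mt1 (40.13 CPM) stood apart. In db/m S184 the highest values of Ppara (47.12 CPM) and Socs3 (48.72 CPM) and the lowest of Adm (22.8 CPM) did, and in db/m 3 the highest of Arntl (19.77 CPM).

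For 3 genes the genotype difference itself differed between title forms in edgeR's test. The log2 fold change among S-number titles minus that among group-tag titles was 5.193 for AA465934, 2.467 for Fndc5 and 1.721 for Wdfy1, with db/m S184 and S185 the low libraries of each.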

How the results depend on the processing

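All 6 called genes were lower in db/db in each of the 24 alternatives, where their separate groups left little room for a turn. The number of genes passing the threshold varied. Against 6 called genes, DESeq2 called 290 and the tubule level as a further term gave 100. The 8 vehicle libraries alone gave 2, leaving out puerarin 2 and 3 gave 2, and no term for title form gave 1. Group-tag libraries alone gave 0 and leaving out db/m S184 and S185 gave 0, with 526 and 1225 genes at an unadjusted p under 0.05. Leaving out 1 library gave 0 to 82, the most without db/db 1. For the difference between title forms, against 3 called genes, the 8 vehicle libraries gave 1, DESeq2 51, and leaving out 1 library 1 to 103, the most without db/db 3. The log2 difference of Lepr ran from -0.2975 to 0.005575 with 1 library left out, and its sign turned without db/db 3. The cause was not tested. No paired analysis was possible because db/db vehicle and db/m vehicle share only the replicate number 3. With 4 libraries a group, the spread between libraries limits what can be called.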
